A study of Rattus norvegicus with 288 samples.

Results

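Nqo1, Hmox1, Gclc, Gclm, Txnrd1 and Srxn1 are classical targets of NRF2, the transcription factor that switches on antioxidant and detoxification genes, and their transcripts were followed here in 3 tissues (liver, heart and bone marrow) of rats given kinase inhibitors. Each gene was read through the probe set that carries its symbol alone, taking the probe set with the highest mean signal in the tissue. The 6 genes had 10 such probe sets among 20832 with a single symbol, and they were 6 of 14218 genes on the array. The same probe set was highest in all 3 tissues for each gene: 1387599_a_at for Nqo1, 1370080_at for Hmox1, 1372523_at for Gclc, 1370030_at for Gclm, 1398791_at for Txnrd1 and 1372510_at for Srxn1. On the GRCr8 assembly Gclm lies on chromosome 2 (213032135 to 213052192), Srxn1 on chromosome 3 (161064812 to 161070372), Txnrd1 on chromosome 7 (22717620 to 22802553) and Gclc on chromosome 8 (87510251 to 87548896). Hmox1 (13452365 to 13479823) and Nqo1 (52205374 to 52220267) both lie on chromosome 19.

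The animals were 96 male Sprague-Dawley rats of 7 to 8 weeks, all with an indwelling femoral vein cannula, and each gave 1 array of bone marrow, heart and liver. An intravenous dose of Temsirolimus (0.3 mg/kg), an inhibitor of mTOR, or of its vehicle (TEM_vehicle) was followed 30 minutes later by an oral dose of Sorafenib (25 mg/kg) or Sunitinib (5 mg/kg), both inhibitors of several receptor tyrosine kinases, or of an oral vehicle. The 8 treatments were Temsirolimus then Sorafenib, Temsirolimus then Sunitinib, Temsirolimus then F68/PG/PEG400 (the vehicle of sorafenib), Temsirolimus then sterile water (the vehicle of sunitinib), TEM_vehicle then Sorafenib, TEM_vehicle then Sunitinib, TEM_vehicle then F68/PG/PEG400 and TEM_vehicle then sterile water. Tissue was taken 1, 6 or 24 h after dosing from 4 rats of each treatment, so that every rat gives 1 time only. Bone marrow came from the left femur, heart from the apex with both ventricles, and liver from the left lateral and median lobes. Every drug was given once, at 1 dose, to healthy young males, and the clock time of dosing is not given in the sources used here, so hours after dosing cannot be told apart from time of day or feeding.

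Under resting conditions the adaptor KEAP1 holds NRF2 (gene symbol Nfe2l2) in the cytoplasm and hands it to a CUL3 ubiquitin ligase for degradation. When electrophiles or oxidants modify KEAP1, NRF2 accumulates, pairs with a small MAF protein and binds antioxidant response elements near its target genes, some of which BACH1 otherwise keeps silent. The 6 genes cover different arms of this response. Gclc and Gclm encode the catalytic and modifier subunits of glutamate-cysteine ligase, the rate-limiting enzyme of glutathione synthesis. Txnrd1 encodes the cytosolic thioredoxin reductase, and Srxn1 encodes sulfiredoxin, which restores over-oxidised peroxiredoxins. Nqo1 reduces quinones by transfer of both electrons at once. Hmox1 is the inducible haem oxygenase, which opens haem to biliverdin, carbon monoxide and iron and is abundant in macrophages that clear red cells.

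The promoter windows of the 6 genes show where the core of the antioxidant response element is spelled out near a start site. The RefSeq table (GRCr8) gave windows of 250 bases before to 50 bases after the start for 5 of the 6 genes, and Hmox1 is named only. The core TGACNNNGC, where N is any base, was searched on both strands and was present in 4038 of 33469 windows (12.1%). It occurred in the window of Gclm and in 1 of the 2 windows of Txnrd1, and not in the other Txnrd1 window or those of Nqo1, Gclc and Srxn1. Both are shown 5′ to 3′ in the sense of transcription, with the match in capitals (read as the core on the opposite strand); the Gclm match ends 164 bases and the Txnrd1 match 70 bases before the start.
Gclm, chr2:213031923-213032011, + strand: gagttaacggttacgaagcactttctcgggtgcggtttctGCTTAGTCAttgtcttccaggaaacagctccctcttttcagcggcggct
Txnrd1, chr7:22755934-22756022, - strand: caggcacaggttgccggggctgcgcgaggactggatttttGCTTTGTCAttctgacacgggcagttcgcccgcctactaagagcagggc
These letters describe the windows only. Elements farther from the start were not searched.

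All signals are log2 values as deposited by the authors after robust multi-array averaging, so that 1 unit is a doubling. The tissues had different array medians, 6.88 for liver, 6.92 for heart and 6.55 for bone marrow, and levels across tissues are therefore a description, given with the percentile of the probe set within its array. A change counted as called when limma's adjusted p (Benjamini-Hochberg over 14218 genes) was below 0.05. The hepatocyte list (15 of 15 genes measured) averaged 14.15 to 14.6 in liver arrays and 4.92 to 5.85 in bone marrow arrays. The cardiac muscle list (12 of 13 genes measured) averaged 13.34 to 14.14 in heart arrays, and the erythroid list (11 of 14) 11.52 to 12.58 in bone marrow arrays. A few arrays stood apart from their groups. Bone marrow 4M45 (Temsirolimus then F68/PG/PEG400, 6 h) lay below its 3 group mates for Hmox1, Txnrd1, Gclc and Gclm, and liver 7M78 (TEM_vehicle then Sunitinib, 24 h) lay below its group mates for all 6 genes. Heart 6M68 (Temsirolimus then Sorafenib, 1 h) had a hepatocyte level of 14.02, against a median of 6.22 over the 96 hearts, and lay above its group mates for 5 of the 6 genes. Hearts 4M46, 3M27, 3M28, 4M39, 4M40 and 4M42 and liver 4M48 were also doubted. Hepatocyte levels were also high in 5 more hearts, at 11.57 and 10.78 in 5M53 and 5M54 (Temsirolimus then Sunitinib, 24 h), 11.34 and 11.01 in 5M51 and 5M52 (the same drugs, 6 h) and 10.13 in 6M64 (Temsirolimus then Sorafenib, 6 h). The heart comparisons were therefore run without 7 hearts (6M68 and the 6 above) and without all 12, and the part of these transcripts in the results was not tested further. All 12 are hearts of Temsirolimus rats. The highest hepatocyte level with TEM_vehicle was 8.56 (8M90), and levels above that occurred only with Temsirolimus. Hearts 6M65 (9.57), 6M63 (9.4) and 5M55 (9.31), also of Temsirolimus rats, were kept in every fit. Heart 4M46, among those left out, had a level of 6.62. As these are bulk tissues, fewer cells of a type and less RNA per cell cannot be told apart.

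In the 24 vehicle rats the liver held the highest signal of 5 of the 6 genes, and Hmox1 was the exception. Gclc averaged 11.41 ± 0.44 in liver (SD, n = 24; 10.42 to 12.10, median 11.57), 10.45 ± 0.28 in bone marrow (10.01 to 10.89, median 10.36) and 7.67 ± 0.12 in heart (7.42 to 7.86, median 7.67). Its median percentile was 95.8 in liver, 92.6 in bone marrow and 62.2 in heart, which made it the member with the widest gap between tissues. Within the same rat the liver signal of Gclc exceeded that of the heart by 3.74 ± 0.43 in 24 of 24 rats, and that of the bone marrow by 0.96 ± 0.56 in 23 of 24. Gclm, its partner subunit, was less uneven. It averaged 11.24 ± 0.20 in liver (10.81 to 11.60, median 11.26), 11.03 ± 0.15 in bone marrow (10.76 to 11.39, median 11.02) and 8.94 ± 0.18 in heart (8.72 to 9.46, median 8.87). Liver and bone marrow overlapped for Gclm, with liver higher in 18 of 24 rats by 0.21 ± 0.26.

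Hmox1 had its highest signal in bone marrow, at 10.48 ± 0.17 (10.19 to 10.88, median 10.50), against 9.90 ± 0.24 in liver (9.63 to 10.45, median 9.84) and 7.84 ± 0.22 in heart (7.51 to 8.26, median 7.78). Bone marrow exceeded liver in 24 of 24 rats. The macrophage list (11 of 14 genes measured) averaged 9.5 to 10.38 over the 96 bone marrow arrays, 9.44 to 11.96 over the livers and 7.15 to 9.9 over the hearts, so the heart also had the lowest range of that list. Whether these levels bear on that of Hmox1 was not tested. Nqo1 averaged 10.92 ± 0.61 in liver (8.55 to 11.67, median 10.98), 9.37 ± 0.21 in heart (8.79 to 9.68, median 9.35) and 8.60 ± 0.20 in bone marrow (8.21 to 8.98, median 8.66). The heart was thus above the bone marrow for Nqo1, with the bone marrow the higher in 1 of 24 rats.

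Txnrd1 followed the order of Nqo1, with 11.24 ± 0.14 in liver (10.98 to 11.51, median 11.20), 10.03 ± 0.13 in heart (9.72 to 10.30, median 9.99) and 9.67 ± 0.18 in bone marrow (9.27 to 10.05, median 9.68). Heart and bone marrow overlapped, and bone marrow was the higher of the pair in 3 of 24 rats. Srxn1 averaged 9.07 ± 0.28 in liver (8.51 to 9.55, median 9.09), 8.58 ± 0.14 in bone marrow (8.28 to 8.83, median 8.56) and 7.71 ± 0.19 in heart (7.32 to 8.19, median 7.71). Liver and bone marrow overlapped again, with liver higher in 22 of 24 rats.

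**Figure D1:**
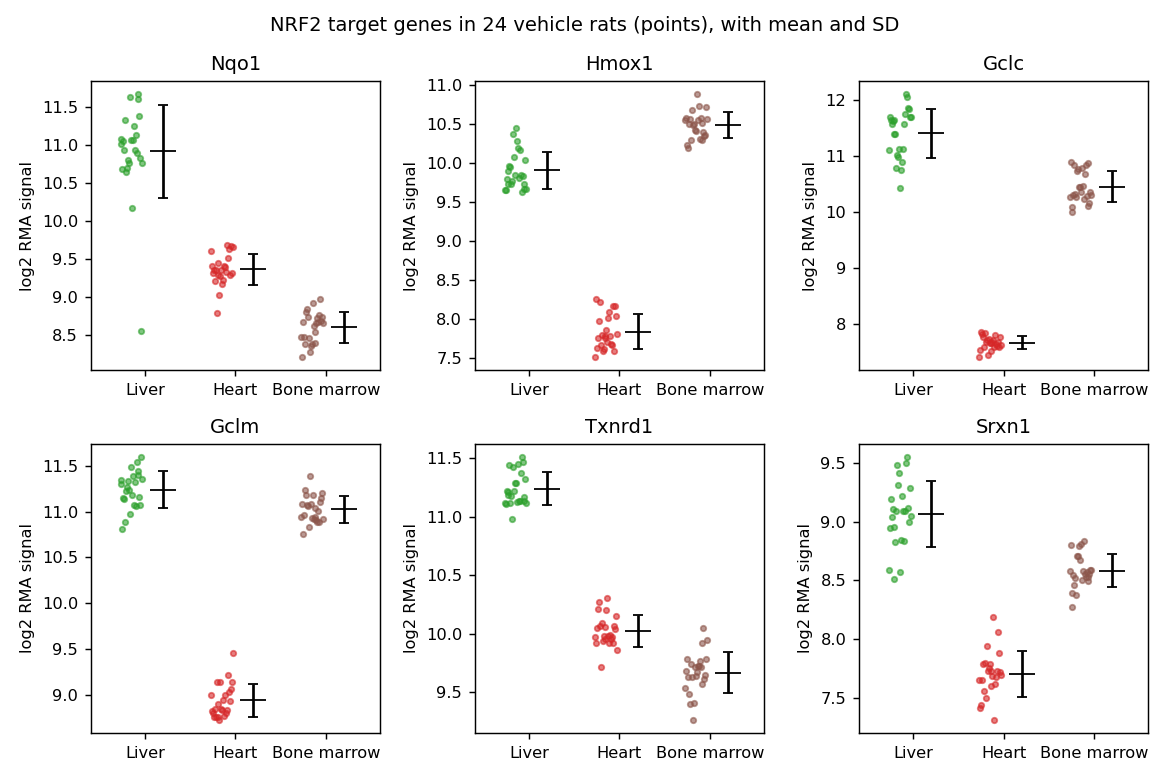
Log2 RMA signal of each gene (y axis) in liver, heart and bone marrow (x axis) of the 24 vehicle rats; points are rats and bars are the mean and SD. Liver lies highest in 5 panels, while Hmox1 lies highest in bone marrow (10.48, against 9.90 in liver).

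Rats of 1 group differed most in liver Nqo1. Its SD within groups was 0.47 there, which is at percentile 98 of all genes, against a median of 0.17 over the genes of the liver. The lowest liver was 8.55 (1M11, TEM_vehicle then sterile water, 24 h) and the highest 11.77 (7M77, TEM_vehicle then Sunitinib, 24 h). Hmox1 varied nearly as much in liver (SD 0.39, percentile 96.6), where rat 3M30 (Temsirolimus then sterile water, 24 h) reached 11.78 and its 3 group mates lay at 9.41, 9.61 and 10.12. In bone marrow the SD of Hmox1 was 0.31 with 4M45 included. Srxn1 in bone marrow (SD 0.15, percentile 30.3), Gclm in bone marrow (0.17, percentile 41.9) and Txnrd1 in liver (0.16, percentile 43.1) varied less than or about as much as the median gene, so a change of a given size was easier to see there.

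Between the times after dosing, 1 gene was called in vehicle rats, liver Gclc, which was low at 6 h and high at 24 h. In rats given TEM_vehicle then sterile water the 4 livers had 11.39, 11.40, 11.62 and 11.64 at 1 h, 10.42, 10.75, 10.90 and 11.13 at 6 h, and 11.69, 11.70, 11.83 and 11.86 at 24 h. In rats given TEM_vehicle then F68/PG/PEG400 they had 11.11, 11.58, 11.64 and 11.70 at 1 h, 10.79, 10.99, 11.01 and 11.13 at 6 h, and 11.57, 11.75, 12.05 and 12.10 at 24 h. No 24 h liver overlapped a 6 h liver, while the highest 6 h livers reached the lowest 1 h liver. Over both vehicles (8 rats a time) Gclc averaged 10.89 ± 0.24 at 6 h and 11.51 ± 0.20 at 1 h, a fall of 0.62 ± 0.13 (SE; 95% interval -0.87 to -0.36, 0.651-fold, limma adjusted p = 0.00176). At 24 h it averaged 11.82 ± 0.18, which was 0.93 ± 0.13 above 6 h (0.67 to 1.18, 1.90-fold, adjusted p = 2.72e-07) and 0.31 ± 0.13 above 1 h (adjusted p = 0.521). Of the 54 values of the 6 genes over 3 tissues and 3 pairs of times these were the 2 called, against 1.27% of all values called over all genes. In vehicle livers 1.06% of all genes fell between 1 and 6 h, and 2.06% rose between 6 and 24 h.

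The rats of each group were also split by rat number into the first 2 and the last 2. Dosing took place on 2 days, and the labels do not tie this split to the day or to the running of the arrays. Liver Gclc at 6 h was 0.77 below 1 h in the first 2 rats and 0.46 below it in the last 2, and 24 h was 1.01 and 0.85 above 6 h. Both calls held when any 1 of the 16 rats was left out, with the first at -0.68 to -0.56 (adjusted p 0.000708 to 0.00892) and the second at 0.87 to 0.98 (adjusted p 1.79e-07 to 3.82e-06).

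Livers of rats given a drug followed the same course. In the 24 such rats at each time Gclc averaged 11.28 ± 0.27 at 1 h (10.54 to 11.72, median 11.26), 10.73 ± 0.37 at 6 h (9.67 to 11.73, median 10.76) and 11.52 ± 0.32 at 24 h (10.89 to 12.12, median 11.59). It was 0.55 ± 0.07 lower at 6 h than at 1 h (adjusted p = 1.95e-08), 0.79 ± 0.07 higher at 24 h than at 6 h (adjusted p = 4.47e-14) and 0.24 ± 0.07 higher at 24 h than at 1 h (adjusted p = 0.0141). Here the background was large, as 8.19% of all genes fell between 1 and 6 h, 19.6% rose between 6 and 24 h and 6.28% rose between 1 and 24 h. The value at 6 h was below that at 1 h in all 8 treatments, by 0.26 in rats given TEM_vehicle then Sunitinib up to 1.00 in rats given Temsirolimus then sterile water. Taken singly, this fall was called in Temsirolimus then sterile water, Temsirolimus then Sorafenib and TEM_vehicle then sterile water, where 0.474% of all values over all genes fell. The later gain was called in 7 of 8 treatments (2.02% of all values rose), with 1.11 in Temsirolimus then Sorafenib, 0.70 in Temsirolimus then Sunitinib, 1.00 in Temsirolimus then F68/PG/PEG400 (1.01 without liver 4M48), 0.70 in Temsirolimus then sterile water, 1.02 in TEM_vehicle then Sorafenib, 0.88 in TEM_vehicle then F68/PG/PEG400 and 0.97 in TEM_vehicle then sterile water. The treatment without a call was TEM_vehicle then Sunitinib, at 0.19 ± 0.18 (95% interval -0.17 to 0.55, adjusted p = 0.414), whose 24 h group holds liver 7M78 and whose 6 h group holds the highest 6 h liver, 11.73 (7M76). An F test of whether sunitinib's change differed between times gave adjusted p = 0.176 for liver Gclc.

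**Figure D2:**
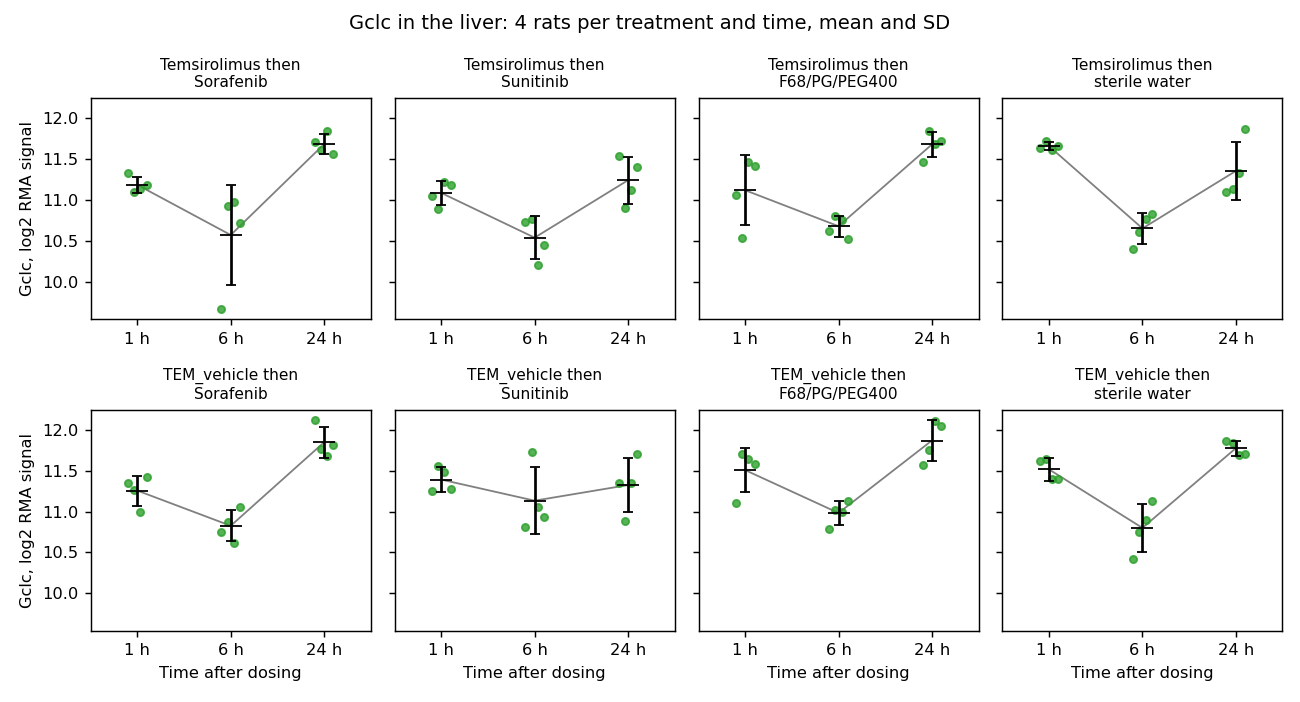
Liver Gclc, log2 RMA signal (y axis), at 1, 6 and 24 h (x axis) in each of the 8 treatments; points are the 4 rats of a group, with mean and SD. The 6 h mean lies lowest in every panel, and the gain from 6 to 24 h was smallest for TEM_vehicle then Sunitinib (0.19).

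For the partner subunit vehicle livers gave Gclm means of 11.14 ± 0.19 at 1 h, 11.25 ± 0.17 at 6 h and 11.33 ± 0.21 at 24 h (n = 8), with no call, and Gclc itself had no call between times in the bone marrow or heart of vehicle rats. In the fit that pools the rats given a drug, 7 further changes with time were called, all of them rises and none in the heart. Hmox1 in liver averaged 9.67 ± 0.26 at 1 h (9.21 to 10.24), 10.12 ± 0.35 at 6 h (9.61 to 10.99) and 10.06 ± 0.64 at 24 h (8.39 to 11.78). It was 0.45 ± 0.11 higher at 6 h than at 1 h (adjusted p = 0.00142, among 11.6% of genes that rose) and 0.39 ± 0.11 higher at 24 h than at 1 h (adjusted p = 0.00634). Vehicle rats gave 10.10 ± 0.27 at 6 h and 9.79 ± 0.12 at 1 h for liver Hmox1, a difference of 0.30 that was not called. Gclm in liver was 0.21 ± 0.07 higher at 24 h than at 1 h (adjusted p = 0.0295) and 0.19 ± 0.07 higher than at 6 h (adjusted p = 0.0326). Without livers 7M78 and 4M48 all 7 liver calls held, with Gclm at 0.26 and 0.23.

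In bone marrow of rats given a drug Gclm averaged 11.01 ± 0.15 at 1 h (10.69 to 11.29), 10.98 ± 0.23 at 6 h (10.25 to 11.36) and 11.21 ± 0.12 at 24 h (10.99 to 11.47). It was 0.20 ± 0.04 higher at 24 h than at 1 h (adjusted p = 0.00132) and 0.23 ± 0.04 higher than at 6 h (adjusted p = 0.000121), where 2.05% and 3.95% of all genes rose. In vehicle rats the means were 11.04 at 1 h, 11.04 at 6 h and 11.01 at 24 h. The difference between drug and vehicle rats in this course was tested for each drug alone by the F test over times, and none was called for Gclm in bone marrow. Nqo1 in bone marrow was 0.18 ± 0.05 higher at 24 h than at 1 h (adjusted p = 0.0214). Without array 4M45 these 3 bone marrow calls held, Gclm at 0.20 for both and Nqo1 at 0.18.

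Within single treatments that hold a drug, 22 of 324 values between times were called (background 3.59%), of which 7 are those of liver Gclc given above. In the heart 6 were called. Txnrd1 under TEM_vehicle then Sorafenib was 0.43 higher at 6 h than at 1 h (adjusted p = 0.0105) and 0.38 higher at 24 h than at 1 h (adjusted p = 0.0475). The background was large there, as 25.5% and 7.7% of all genes were called in these comparisons, in that order. Hmox1 under TEM_vehicle then Sunitinib was lower at 24 h than at 6 h (change -0.57, adjusted p = 0.0473), where 3.4% of all genes were called. Under Temsirolimus then Sorafenib, whose 1 h group holds heart 6M68, Gclc was lower at 6 h and at 24 h than at 1 h (changes -0.60 and -0.56) and Gclm lower at 6 h (change -0.55), and all 3 calls were lost without 6M68 (-0.08, -0.04 and -0.29). The 6 calls in bone marrow were all in Temsirolimus then F68/PG/PEG400, on Hmox1, Gclc, Gclm and Txnrd1, and none was left without 4M45. In liver Hmox1 and Txnrd1 were each called once under TEM_vehicle then Sunitinib and in neither case without 7M78. Liver Hmox1 under Temsirolimus then Sorafenib was 0.99 higher at 24 h than at 1 h (adjusted p = 0.037), where 1.63% of all genes were called.

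Temsirolimus was set against TEM_vehicle in rats that then received an oral vehicle (8 rats each), and none of the 54 values of the 6 genes was called, while 0.439% of all values over all genes were. The changes ran from -0.58 to 0.29 with a median of -0.06, and 38 of 54 lay at or below 0 (16 above). The unadjusted 95% interval of a change reached 0.23 to either side at the median, so smaller changes of a typical member could not be told from 0. The adjusted test asks for larger changes than that. The same comparison in rats that then received Sunitinib or Sorafenib shares no array with the first and gave no call either (background 1.04%), with changes of -0.55 to 0.36.

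The lowest of these values was Hmox1 in bone marrow at 6 h, the gene of haem breakdown. Rats given Temsirolimus had 10.13, 10.22, 10.27 and 10.46 when followed by Sorafenib, 10.14, 10.21, 10.25 and 10.27 when followed by Sunitinib, 7.61 (4M45), 9.98, 10.38 and 10.39 when followed by F68/PG/PEG400 and 10.16, 10.29, 10.35 and 10.51 when followed by sterile water. Rats given TEM_vehicle had 10.50, 10.61, 10.61 and 10.62 with Sorafenib, 10.59, 10.64, 10.78 and 11.01 with Sunitinib, 10.41, 10.42, 10.49 and 10.49 with F68/PG/PEG400 and 10.30, 10.55, 10.73 and 10.88 with sterile water. The Temsirolimus group was below its TEM_vehicle group for every oral agent, and the groups did not overlap with Sorafenib, Sunitinib or F68/PG/PEG400. With 4M45 in the fit, temsirolimus alone gave -0.58 ± 0.15 (adjusted p = 0.157), and the average over the 4 oral agents gave -0.50 ± 0.10 (16 rats each, adjusted p = 0.0414, 1 of 3 genes that fell, 0.0211% of all genes).

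Without 4M45 the average over the 4 oral agents was -0.34 ± 0.05 (95% interval -0.45 to -0.23, 0.791-fold, adjusted p = 0.00016), and Hmox1 was 1 of 11 genes that fell (0.0774% of all genes). In the rats given Sunitinib or Sorafenib, none of which is 4M45, Hmox1 averaged 10.24 ± 0.10 with Temsirolimus and 10.67 ± 0.16 with TEM_vehicle (n = 8 each), and no Temsirolimus rat reached a TEM_vehicle rat. Here the change was -0.43 in either fit. It was called only when 4M45 was left out of the spread shared by all 96 arrays (SE 0.08, adjusted p = 0.0018, 1 of 4 genes that fell, 0.0281%), and not with it (SE 0.15, adjusted p = 1). In rats given an oral vehicle the change without 4M45 was -0.25 ± 0.08 (adjusted p = 0.642). Within single oral agents, without 4M45, the change was -0.31 with Sorafenib, -0.54 with Sunitinib (adjusted p = 0.0125), -0.22 with F68/PG/PEG400 and -0.29 with sterile water. With Sunitinib 0.239% of all genes were called in that fit. The average over oral agents and the fits without 4M45 alone were chosen after the data were seen.

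Macrophages are a known source of Hmox1 in the marrow. At 6 h the macrophage list averaged 10.04 ± 0.09 with Sorafenib, 10.06 ± 0.12 with Sunitinib, 9.93 ± 0.29 with F68/PG/PEG400 and 10.01 ± 0.13 with sterile water in Temsirolimus rats (SD, n = 4). In TEM_vehicle rats it averaged 10.08 ± 0.06, 10.19 ± 0.16, 10.06 ± 0.07 and 10.06 ± 0.13 in the same order of oral agents. Without 4M45 the list averaged 10.07 ± 0.06 in the Temsirolimus then F68/PG/PEG400 rats. The list mean with Temsirolimus was thus lower for Sorafenib, Sunitinib and sterile water by about the SD between rats or less. It was not lower for F68/PG/PEG400 once that array was left out. Its part in the result was not tested. At 1 h Hmox1 differed by -0.05 ± 0.05 and at 24 h by -0.07 ± 0.05 over the 4 oral agents without 4M45, neither called.

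**Figure D3:**
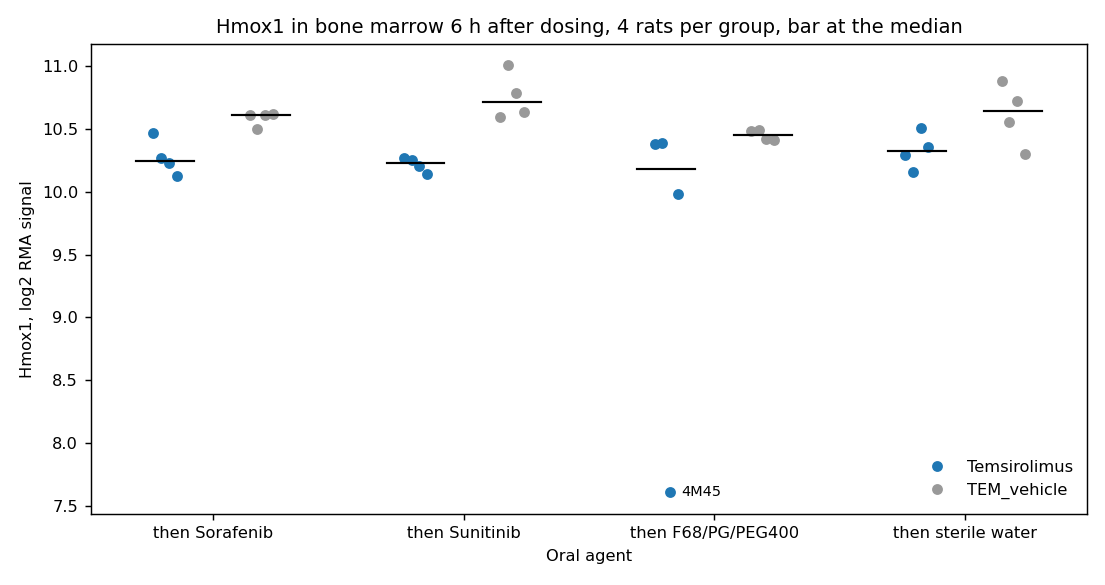
Bone marrow Hmox1 at 6 h, log2 RMA signal (y axis), with Temsirolimus left of TEM_vehicle for each oral agent (x axis); points are rats and bars are medians. Array 4M45 is labelled at 7.61, and the other Temsirolimus rats lie at 9.98 to 10.51.

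Bone marrow at 24 h held 3 smaller values for temsirolimus. Srxn1 was 8.61 to 8.76 with sterile water and 8.62 to 8.998 with F68/PG/PEG400 in Temsirolimus rats, against 8.53 to 8.59 and 8.49 to 8.57 in TEM_vehicle rats. The 8 rats of each side did not overlap, yet the change of 0.19 ± 0.07 was not called (adjusted p = 0.368). Averaged over the 4 oral agents without 4M45, Srxn1 was 0.16 ± 0.05 higher (adjusted p = 0.0493), Gclm 0.16 ± 0.05 higher (adjusted p = 0.0265) and Nqo1 0.20 ± 0.06 lower (change -0.20, adjusted p = 0.0304), where 6% of all genes were called. With all arrays their adjusted p were 0.105, 0.102 and 0.0729. Array 4M45 is not in these groups, and leaving it out changes only the spread estimated over all times.

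In heart and liver temsirolimus gave no call on any member. Heart Nqo1 at 24 h was 9.27 ± 0.14 with Temsirolimus and 9.51 ± 0.17 with TEM_vehicle (n = 8 each, change -0.25, adjusted p = 0.328; without the 7 hearts -0.29, adjusted p = 0.0645). Heart Txnrd1 at 24 h was 9.77 ± 0.18 with Temsirolimus and 10.00 ± 0.09 with TEM_vehicle (change -0.23, adjusted p = 0.3; without the 7 hearts -0.23, adjusted p = 0.12). Liver Gclc at 24 h was 11.51 ± 0.31 with Temsirolimus and 11.82 ± 0.18 with TEM_vehicle (change -0.30, adjusted p = 0.215; without 4M48 -0.30, adjusted p = 0.359). In rats given Sunitinib or Sorafenib, liver Gclc at 6 h was 10.55 ± 0.44 with Temsirolimus and 10.98 ± 0.34 with TEM_vehicle (change -0.42 ± 0.13, adjusted p = 0.479). The groups overlapped in all 4 cases.

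**Figure D4:**
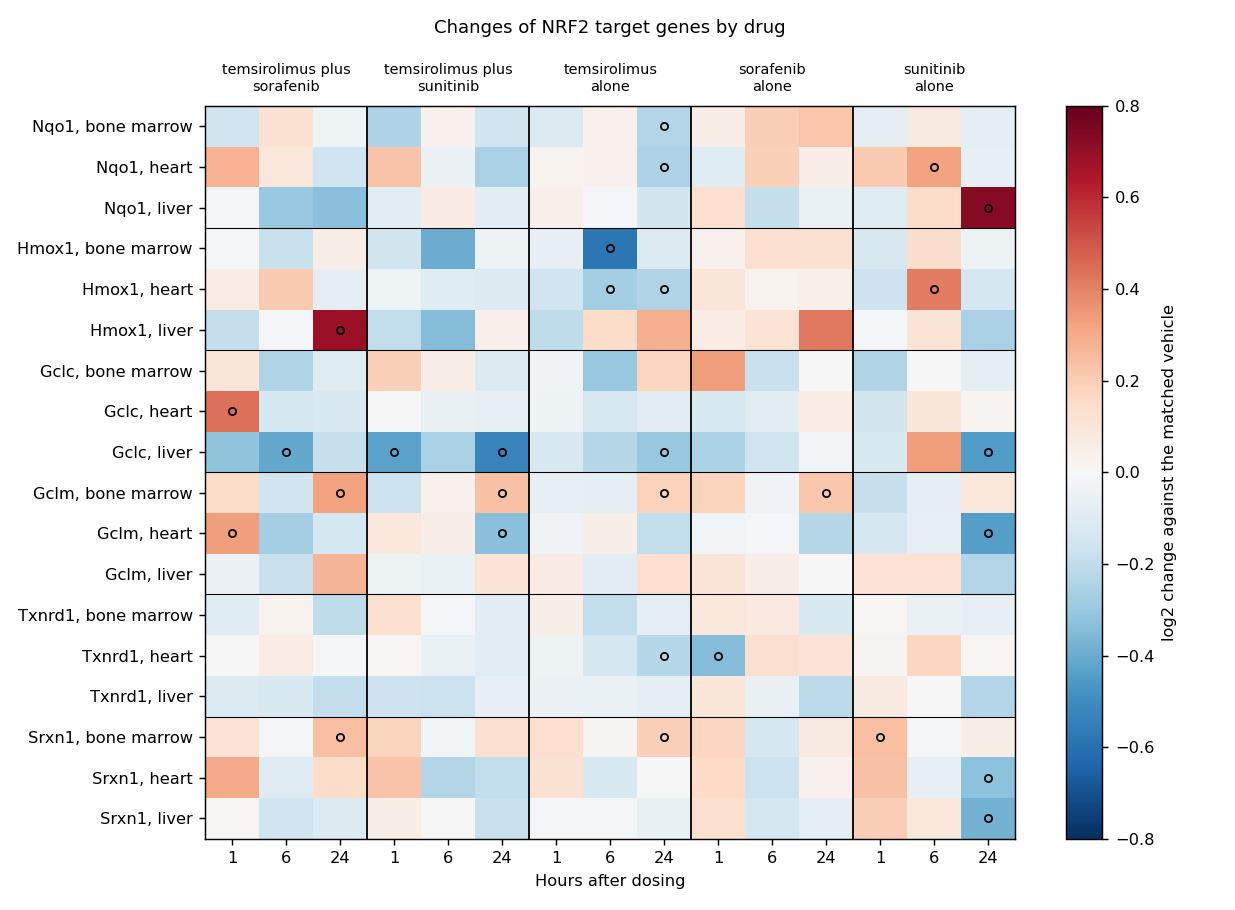
Change in log2 signal (colour, -0.8 to 0.8) of each gene in each tissue (rows) for the 5 drug comparisons at 1, 6 and 24 h (columns); open circles mark unadjusted p below 0.05. No square passed the adjusted test, and the circles number 6, 4, 9, 2 and 8 in temsirolimus plus sorafenib, temsirolimus plus sunitinib, temsirolimus alone, sorafenib alone and sunitinib alone.

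Sorafenib alone was set against TEM_vehicle then F68/PG/PEG400 and called none of the 54 values, against 1.02% over all genes. The changes ran from -0.35 to 0.42 with a median of 0.05, and 2 had an unadjusted p below 0.05. Hmox1 lay above 0 in all 9 combinations of tissue and time, by 0.03 to 0.42, none of them called (smallest adjusted p = 0.787). In heart at 24 h the macrophage list averaged 7.67 ± 0.17 with Sorafenib and 8.42 ± 0.23 with F68/PG/PEG400 (n = 4 each). There 6 of its 11 genes fell, beside 46 of all 14218 genes. Hmox1 moved by 0.04 ± 0.17 in that comparison (95% interval -0.30 to 0.38, adjusted p = 1). Whether the level of the list bears on that of Hmox1 was not tested. The strongest value was heart Txnrd1 at 1 h, the thioredoxin reductase. The hearts had 9.37, 9.74, 9.80 and 9.85 with Sorafenib and 9.92, 9.97, 10.05 and 10.21 with F68/PG/PEG400. The groups did not overlap, and the change of -0.35 ± 0.13 (95% interval -0.60 to -0.10) just missed the threshold (adjusted p = 0.0956). It passed without the 7 doubted hearts (adjusted p = 0.0264) and without all 12 (adjusted p = 0.0314), none of which is in either group, and as the mean of both probe sets (-0.62, adjusted p = 0.0422). Bone marrow Gclm at 24 h was 11.14 ± 0.10 with Sorafenib and 10.92 ± 0.06 with F68/PG/PEG400 (n = 4 each, change 0.21, adjusted p = 0.285).

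When rats had first received Temsirolimus, sorafenib called 1 of 54 values, where 2.96% of all values were called. This was bone marrow Hmox1 at 6 h, at 0.68 ± 0.21 (adjusted p = 0.0217), in a comparison where 14% of all genes rose. The F68/PG/PEG400 side of it holds 4M45. The last 2 rats of each group by number, which include that array, gave a difference of 1.38 and the first 2 gave -0.02. Without 4M45 the change was 0.04 (adjusted p = 1) and no gene was called. With any 1 of the 8 rats left out in turn the call held in 5 of 8 fits, with changes of 0.04 to 0.92.

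Sunitinib alone was set against TEM_vehicle then sterile water, and none of the 54 values was called, against 1.79% over all genes. It held 8 values with an unadjusted p below 0.05, in liver at 24 h, heart at 6 and 24 h and bone marrow at 1 h. The liver values rest on a group whose array 7M78 stands apart. Over all genes 1420 were called in that liver comparison, and none without 7M78. Liver Srxn1 at 24 h had 8.40 (7M78), 8.60, 8.89 and 9.03 with Sunitinib and 8.996, 9.04, 9.12 and 9.28 with sterile water, a change of -0.38 ± 0.14 (adjusted p = 0.0584) that was -0.31 without 7M78 (adjusted p = 1). Liver Gclc had 10.89 (7M78), 11.35, 11.35 and 11.70 with Sunitinib and 11.69, 11.70, 11.83 and 11.86 with sterile water, a change of -0.45 (adjusted p = 0.0709) that was -0.32 without 7M78 (adjusted p = 1). Liver Nqo1 went the other way, with 10.21 (7M78), 11.02, 11.46 and 11.77 with Sunitinib and 8.55, 10.77, 10.83 and 11.38 with sterile water. Its change of 0.73 ± 0.32 (adjusted p = 0.0907) was 0.15 without the third rat of each group, which leaves out the sterile water liver at 8.55.

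In the heart, sunitinib gave higher Hmox1 at 6 h without passing the test. The hearts had 7.97, 8.32, 8.32 and 8.68 with Sunitinib and 7.70, 7.85, 8.00 and 8.09 with sterile water (change 0.41 ± 0.17, adjusted p = 0.165), and 3 of the 4 treated hearts were above all 4 vehicle hearts. Heart Nqo1 at 6 h was 9.63 ± 0.23 with Sunitinib and 9.30 ± 0.12 with sterile water (change 0.32, adjusted p = 0.191). At 24 h heart Gclm had 7.94, 8.71, 8.78 and 9.40 with Sunitinib and 8.93, 9.06, 9.13 and 9.46 with sterile water (change -0.44 ± 0.16, adjusted p = 0.0912). The heart at 7.94 (7M83) decides that size, since the change was -0.19 without the third rats (adjusted p = 0.866). Heart Srxn1 at 24 h had 7.40, 7.51, 7.57 and 7.58 with Sunitinib and 7.70, 7.73, 7.89 and 8.06 with sterile water, with no overlap (change -0.33 ± 0.16, adjusted p = 0.226), but the mean over its 3 probe sets moved by 0.03. Sunitinib in rats first given Temsirolimus called none of 54 values (background 0.0266%), and its changes ran from -0.57 to 0.29.

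The combinations were set against the vehicles given together. Temsirolimus plus sorafenib called none of 54 (background 0.635%), with changes of -0.41 to 0.68. The highest was liver Hmox1 at 24 h, with 9.91, 10.41, 10.66 and 11.22 under the combination and 9.63, 9.84, 9.84 and 10.16 under vehicle (change 0.68 ± 0.27, adjusted p = 0.395). Bone marrow Gclm at 24 h came closest to the threshold. It had 11.13, 11.15, 11.30 and 11.41 under the combination and 10.89, 10.89, 10.91 and 11.01 under vehicle, with no overlap, and the change of 0.32 ± 0.11 had an adjusted p of 0.0691 (0.0138 without 4M45). Array 4M45 is in neither group, and leaving it out changes only the spread shared by all arrays. In this comparison 3.46% of all genes were called with it and 11% without it. Bone marrow Srxn1 at 24 h, at 8.67 to 8.94 under the combination and 8.49 to 8.57 under vehicle, also did not overlap (change 0.24, adjusted p = 0.22). Heart Gclc at 1 h was 0.44 higher with heart 6M68, the one with the hepatocyte transcripts, in the group, and the change was -0.08 without it.

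Temsirolimus plus sunitinib called none of 54 (background 0.206%), with changes of -0.53 to 0.23. Its heart groups at 6 and 24 h hold 4 of the 12 hearts left out, and heart Gclm at 24 h was -0.33 from vehicle both with them (adjusted p = 0.347) and without the 12 (adjusted p = 0.444). Liver Gclc was below vehicle with no overlap at 1 h, with 10.88, 11.05, 11.18 and 11.22 under the combination and 11.39, 11.40, 11.62 and 11.64 under vehicle (change -0.43 ± 0.18, adjusted p = 1). The same held at 24 h, with 10.90, 11.12, 11.40 and 11.54 under the combination and 11.69, 11.70, 11.83 and 11.86 under vehicle (change -0.53 ± 0.18, adjusted p = 0.151). Both are among 5 of the 54 values whose groups did not overlap in this comparison. Temsirolimus plus sorafenib had 3 such values, sorafenib alone 2, and sunitinib alone and temsirolimus alone 1 each. The share over all genes is not given, so these counts are a description. Direct tests of whether a combination departed from the sum of its drugs called none of 54 members for sorafenib (background 0.00156%) and none for sunitinib (background 0%). With 4 rats a group the unadjusted 95% interval of such a departure reached 0.45 to either side at the median, so smaller departures could not be told from 0. The adjusted test asks for larger departures than that.

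No member was called between the oral vehicles, where F68/PG/PEG400 was set against sterile water (none of 54, background 0.0438%). Closest to the threshold were bone marrow Txnrd1 (-0.36, adjusted p = 0.0738) and Hmox1 (-0.45, adjusted p = 0.0755) at 6 h. Both rest on 4M45, without which they were -0.11 (adjusted p = 0.791) and -0.13 (adjusted p = 0.799). The largest value was liver Nqo1 at 24 h, at 11.12 ± 0.36 with F68/PG/PEG400 and 10.44 ± 0.99 with sterile water (n = 8 each, change 0.68 ± 0.23, adjusted p = 0.835), and it was 0.38 ± 0.20 without liver 1M11, the sterile water rat at 8.55. The F test of whether a drug's change differed between 1, 6 and 24 h called none of 54 (background 0.826%), with heart Txnrd1 under sorafenib lowest (adjusted p = 0.108). The change of a drug in one tissue minus that in another, tested within rats, called none of the members' values (background 0.277%). These differences ran from -0.59 to 0.45 for sorafenib, -0.53 to 0.80 for sunitinib and -0.48 to 0.72 for temsirolimus.

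Genes around the 6 members were read from lists drawn up for the pathway. Among the regulators of NRF2 (10 of 11 measured), 0 of 90 values over tissues and times rose and 0 fell with temsirolimus alone, 0 rose and 1 fell with sorafenib alone (1.11%) and 0 rose and 3 fell with sunitinib alone (3.33%). Over all genes the shares called were 0.439%, 1.02% and 1.79% for the 3 drugs in that order, and counts this small are a description. The one under sorafenib was Maff, a small MAF partner, in heart at 6 h (-0.47, adjusted p = 0.0415), and those under sunitinib were Mafg in heart at 24 h (-0.33) and Cul3 (-0.39) and Rbx1 (-0.30) in liver at 24 h, the last pair lost without 7M78. With temsirolimus plus sorafenib Nfe2l2 itself fell in bone marrow at 24 h, by 0.30 (adjusted p = 0.0301), where 3.46% of all genes were called. It was the only call among 90 values of the regulators under that combination (1.11%, beside 0.635% of all values over all genes).

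Other NRF2 targets (26 of 32 measured) fell with temsirolimus alone in liver at 24 h in 5 cases and rose in none, with a median over the list of -0.08 and over all genes of 0.01, while 2.3% of all genes fell. The temsirolimus alone list included Abcc4, an efflux pump (-0.57 ± 0.14), Pgd of the pentose phosphate pathway (-0.50 ± 0.12), Ugdh, which makes UDP-glucuronic acid (-0.29 ± 0.07), Cbr1, a carbonyl reductase (-0.23 ± 0.07), and Me1, malic enzyme. Without liver 4M48 Cbr1 was lost (adjusted p = 0.229) and the other 4 were called. None of the 6 members was called there, their median being -0.07. In rats given Sunitinib or Sorafenib, whose arrays are others, 2 of the 26 fell with temsirolimus in liver at 24 h, Me1 (-0.80) and Slc7a11, the cystine transporter (-0.27). In that comparison 267 of 14218 genes fell and 7.86% of all genes were called. Its TEM_vehicle side holds liver 7M78, and both values are given with that array included. The list gave 0 calls of 234 with sorafenib alone. With sunitinib alone 2 rose and 1 fell, and the one outside the liver with 7M78 was Pir in heart at 6 h (0.49, adjusted p = 0.0231).

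In the thioredoxin list (11 of 12 measured) most drug calls were of Txnip, which encodes a protein that binds and inhibits thioredoxin. With temsirolimus alone it made up all 4 rises of the list (4.04% of 99 values, beside 0.439% of all values over all genes). Txnip rose at 6 h in heart with sorafenib alone (0.77 ± 0.17, adjusted p = 0.00366), where 2.98% of all genes were called. Under temsirolimus plus sorafenib Txnip rose in heart by 1.05 ± 0.17 at 6 h and 0.96 ± 0.17 at 24 h, where 0.844% and 0.668% of all genes were called. None of the 7 doubted hearts is in these groups, so leaving them out could not change the amounts. The Temsirolimus then Sorafenib groups hold hearts 6M64 and 6M63 (6 h) and 6M65 (24 h), with hepatocyte levels of 10.13, 9.4 and 9.57. Their part in the rise was not tested. Txnrd1, the reductase that recharges thioredoxin, was not called in any of these comparisons. The glutathione list (13 of 13 measured) had 0 calls of 117 with temsirolimus alone and 0 with sorafenib alone. Sunitinib alone gave 1 rise and 2 falls there, all in the liver at 24 h, where 9.99% of all genes were called. Without liver 7M78 no gene of the glutathione list was called in that comparison. The haem list (13 of 15) had 1 rise with sorafenib alone, Fech, which inserts iron into haem, in bone marrow at 24 h (0.24, adjusted p = 0.0407). In that comparison 3.7% of all genes were called. The dioxin receptor list (8 of 8) had 0 calls of 72 with temsirolimus alone and with sorafenib alone. The ATF4 list (10 of 10), amino acid stress genes, fell with temsirolimus alone in liver at 24 h in 3 cases, where 2.3% of all genes fell. These were Phgdh (-1.90) and Psat1 (-1.84) of serine synthesis and Asns (-1.43). Without 4M48 the first 2 were called and Asns was not (adjusted p = 0.092).

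With the hours in vehicle livers, 2 other genes of glutathione synthesis and recycling moved beside Gclc. Ggct, the cyclotransferase of the gamma-glutamyl cycle, was 0.49 lower at 6 h than at 1 h and 0.52 higher at 24 h than at 6 h. Gss, glutathione synthetase, ran opposite, 0.38 higher at 6 h and then 0.54 lower (change -0.54, adjusted p = 0.000103). Sqstm1, a KEAP1-binding receptor of autophagy, ran like Gss (0.27 and -0.35), as did Txnrd3 (0.29 and -0.35). Over all lists and tissues the glutathione list held 4 calls of 117 (3.42%), the thioredoxin list 4 of 99 (4.04%) and the regulators 6 of 90 (6.67%), beside 1.27% of all values over all genes and 2.71% and 4.75% of all genes called in vehicle livers between 1 and 6 h and between 6 and 24 h. Other NRF2 targets held 1 of 234 (0.427%), Me1 in bone marrow. The haem list held 1 rise, Cpox in liver, the dioxin receptor list 2 rises, both of Aldh3a1 in heart, and the ATF4 list 4 falls.

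Over the 24 group means of a tissue, the genes whose pattern was most like liver Gclc were Ppil3 (Pearson r = 0.936), Cct6a (0.919) and Mrto4 (0.915). For bone marrow Hmox1 they were Sesn1 (0.894), Fcna (0.89) and Ucp2 (0.875), where the group with 4M45 is 1 of the 24 points. Bone marrow Txnrd1 had Slc39a10 (0.933), heart Txnrd1 Ncstn (0.909), liver Gclm Grhpr (0.865), heart Gclc Mthfd1 (0.87), heart Nqo1 Smu1 (0.839) and liver Srxn1 Shfl (0.787). No member was among the 3 nearest of another. Between members the highest correlations were Hmox1 with Txnrd1 in bone marrow (0.686) and Gclc with Txnrd1 in bone marrow (0.602), both of which include 4M45, then Hmox1 with Txnrd1 in heart (0.594). Gclc with Gclm in liver gave 0.442, and the lowest was Hmox1 with Srxn1 in bone marrow (-0.349). The points share the array normalization and the 3 times, and these values are a description.

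For Srxn1, the gene of sulfiredoxin, a rat high in one tissue tended to be high in another. The departure of each rat from its group mean was compared between tissues for the 6 genes and 3 tissue pairs (18 correlations, 96 rats each). From each departure the fitted term for the first 2 against the last 2 rats at that time was also taken out. Srxn1 in heart and bone marrow gave r = 0.493 and Spearman's rho = 0.482 (permutation p = 1e-05, the smallest that 100000 permutations can give, Benjamini-Hochberg adjusted 0.00018), and r = 0.517 without the 2 rats farthest from the median. The median over all genes was -0.001, and this value lay at percentile 98.5. It was 0.438 in the first 2 rats of each group by number and 0.583 in the last 2, and 0.627 at 1 h, 0.461 at 6 h and 0.348 at 24 h. In 91 rats without 4M45, 6M68, 4M46, 4M48 and 7M78 it was 0.503. Srxn1 in liver and heart gave r = 0.332 and rho = 0.303 (permutation p = 0.0011, adjusted 0.0099; r = 0.292 without the 2 farthest), with 0.362 in the first 2 rats and 0.283 in the last 2. This r lay at percentile 94.2 of all genes, whose median for liver and heart was 0.048. By time it was 0.164 at 1 h, 0.345 at 6 h and 0.497 at 24 h. Nqo1 in liver and heart gave r = 0.279 and rho = 0.319 (permutation p = 0.0077, adjusted 0.046; r = 0.268 without the 2 farthest), with 0.212 in the first 2 rats and 0.329 in the last 2. Its r lay at percentile 91.7 of all genes, and was 0.404 at 1 h, 0.212 at 6 h and 0.273 at 24 h. Srxn1 in liver and bone marrow gave 0.051.

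**Figure D5:**
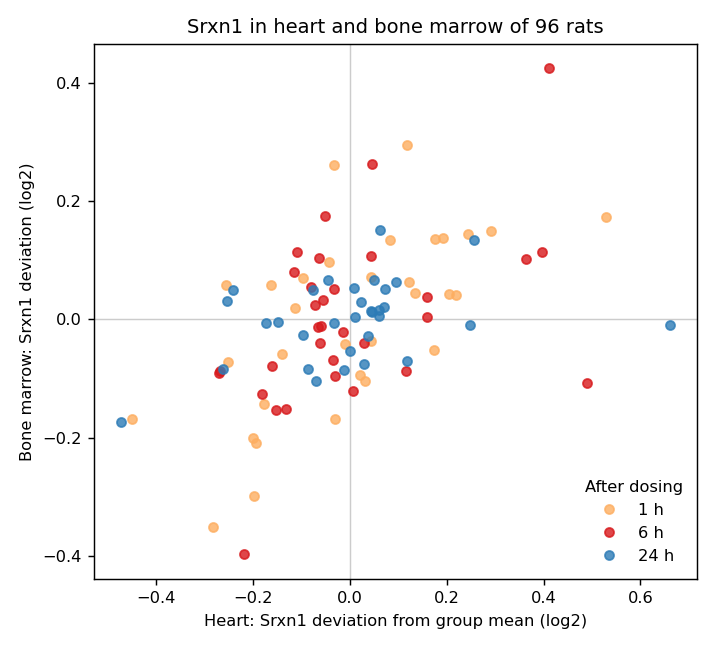
Departure of each rat's Srxn1 log2 signal from its group mean in bone marrow and heart (axes), for 96 rats coloured by hours after dosing. Rats high in one tissue tended to be high in the other (r = 0.493).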

How the data were processed

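Total RNA (RNA integrity number of at least 7.5, per the labels) of 288 tissue samples was hybridised to Affymetrix rat whole-genome arrays. The authors made the deposited log2 values by robust multi-array averaging (RMA: background correction, quantile normalization and median polish), whose version is not given in the sources used here. Array medians differ between tissues, so every test was run within a tissue. Of 31099 probe sets the platform annotation covered 21268 and left 9831 unnamed. A single symbol was given to 20832, while 436 that carried more than one were left out. For each gene the probe set with the highest mean in the tissue was used, which gave 14218 genes.

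Each tissue was fitted with limma 3.58.1 in R 4.3.3, with 24 group means and 3 terms, 1 per time, for the first 2 against the last 2 rats of each group by rat number, and eBayes moderation, and p-values were adjusted by the Benjamini-Hochberg method over all genes (called under 0.05). Temsirolimus alone was averaged over the oral vehicles. Changes between tissues were fitted on differences within a rat. The rat pairs the tissues by design, and the residuals of the same rat correlated by a median of 0.09 (heart and bone marrow) to 0.123 (liver and heart), against about -0.001 for different rats. The scripts were tested on simulated data. Arrays give no depth, so precision depends on how many rats a group holds. Labels do not say which rats were dosed on which of the dosing days, so that day was not fitted, and p-values measure the spread between rats.

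The 6 genes and the lists were chosen with earlier results of these data known. By rule the text names the 6 genes, up to 4 called genes of a list with the largest change in a comparison, and the 3 genes most like each member. Other list genes were named to account for small counts, after their values were seen. Alternatives were the mean of all probe sets, a filter on low signal, renewed quantile normalization, no term for that split, covariates for the hepatocyte level in the heart and for a mark in 8 bone marrow labels, and leaving out rats or doubted arrays. Leaving out the 7 or 12 hearts, pooling rats given a drug by hour and averaging temsirolimus over 4 oral agents were chosen after seeing the data. Sequences are from RefSeq (GRCr8).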

Additional observations from a re-analysis of the deposited data

Results flagged for a closer look

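In 19 of 432 groups of 4 rats (4.4%) 1 rat lay farther from the rest than Dixon's 95% critical value allows, and chance alone gives about 1 in 20 groups. The gap exceeded 0.5 in 7 of them. The array furthest from its group was bone marrow 4M45 (Temsirolimus then F68/PG/PEG400, 6 h), with Hmox1 at 7.606 and the other rats at 9.982 to 10.387. Heart 6M68 (Temsirolimus then Sorafenib, 1 h) had Nqo1 at 10.545, against 9.384 to 9.48, and Gclc at 9.698, against 7.383 to 7.675. Heart 4M46 (Temsirolimus then F68/PG/PEG400, 6 h) had Txnrd1 at 9.13, against 9.935 to 10.069.

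In bone marrow the other distant rats had Nqo1 at 8.123 (Temsirolimus then Sorafenib, 1 h), Hmox1 at 10.507 and 10.499 (TEM_vehicle then Sorafenib, 1 h and 6 h), Gclc at 10.289 (Temsirolimus then sterile water, 24 h) and 10.836 (TEM_vehicle then sterile water, 1 h), Gclm at 11.007 (TEM_vehicle then F68/PG/PEG400, 24 h) and Srxn1 at 8.353 (Temsirolimus then F68/PG/PEG400, 1 h). In heart they had Gclc at 7.599 (Temsirolimus then Sorafenib, 6 h) and Txnrd1 at 9.397 (Temsirolimus then sterile water, 24 h). In liver they had Nqo1 at 10.395 (Temsirolimus then F68/PG/PEG400, 1 h) and 10.692 (TEM_vehicle then F68/PG/PEG400, 1 h), Hmox1 at 10.032 (TEM_vehicle then sterile water, 24 h), Txnrd1 at 11.025 (Temsirolimus then Sorafenib, 24 h) and Srxn1 at 8.975 (TEM_vehicle then Sorafenib, 6 h) and 9.503 (TEM_vehicle then Sunitinib, 6 h). Rat 7M76, which gave that last value, also had the highest liver Gclc at 6 h, 11.73.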

How the results depend on the processing

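Of the values of single genes recomputed under the alternatives, 1087 kept their direction and side of the threshold, 29 passed it only under an alternative, 2 no longer passed it and 18 changed sign. Members called out of 54 moved as follows. With the mean of all probe sets, sorafenib alone called 1 and the test of drug by time called 1. With renewed quantile normalization, temsirolimus plus sorafenib, temsirolimus in rats given Sunitinib or Sorafenib, and the change between tissues each called 1. With the hepatocyte level as a covariate in the heart, sunitinib alone and temsirolimus in rats given Sunitinib or Sorafenib each called 1. Without bone marrow 4M45 and liver 4M48, sorafenib in Temsirolimus rats called 0, and temsirolimus plus sorafenib and temsirolimus in rats given Sunitinib or Sorafenib each called 1. Without the 7 hearts sorafenib alone and sunitinib alone each called 1, without 12 hearts sorafenib alone called 1, and without liver 7M78 and heart 6M68 sunitinib alone called 1. Temsirolimus called 1 within F68/PG/PEG400, 1 averaged over 4 oral agents and 4 when this was done without 4M45. Rats given a drug gave 10 calls between hours, also without 4M45 and also without livers 7M78 and 4M48. When replicates were left out in turn, sunitinib alone called 0 to 3, sorafenib in Temsirolimus rats 0 to 2, and temsirolimus plus sorafenib, the oral vehicle and the change between tissues 0 to 1. With tissues as independent arrays and no replicate block (no pairing by rat), the change between tissues called 0. The cause of these moves was not tested, other than the arrays and samples each alternative leaves out.

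Signs changed for values that were not called. Heart Gclc at 1 h under temsirolimus plus sorafenib was -0.079 without the 7 hearts, the same without 12 hearts and without liver 7M78 and heart 6M68, and -0.037 to 0.656 with replicates left out in turn. Heart Srxn1 at 24 h under sunitinib was 0.032 as the mean of all probe sets. Txnrd1 at 6 h under sorafenib in Temsirolimus rats was -0.124 in bone marrow without 4M45 and liver 4M48, -0.078 to 0.595 there with replicates left out in turn, and -0.104 in heart without the 7 hearts (-0.114 without 12). Within Temsirolimus then F68/PG/PEG400, bone marrow Txnrd1 at 6 minus 1 h was 0.039 without 4M45. In rats given a drug, bone marrow Srxn1 at 24 minus 6 h was 0.015 (0.031 without 4M45), and heart Nqo1 was -0.045 at 24 minus 1 h and -0.034 at 24 minus 6 h. With 4 rats a group, changes under about 0.32 were not detectable for a typical member.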
